A study of Mus musculus with 16 samples.

Results

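The genes described here are the PGC-1 coactivators (Ppargc1a, Ppargc1b), the PPAR receptors (Ppara, Ppard, Pparg), the ERR receptors (Esrra, Esrrb, Esrrg), and the NR4A receptors Nr4a1 and Nr4a3. They were taken by gene symbol, which gave 10 genes of the 21923 in the deposited table. All 10 passed the filter on low counts in every comparison. Poly(A) RNA of the gastrocnemius, a muscle of the calf, had been sequenced for 16 mice, 1 library per mouse and 4 mice per group. NOR mice were injected with PBS in place of tumor cells and then given PBS. CAC mice carried a subcutaneous tumor in the flank and were given PBS. AM mice carried the same tumors and received amiloride, a diuretic that the study used to lower exosome release, intraperitoneally at 2 mg/kg each day from day 9. KD mice were given PBS and carried tumors grown from cells in which Rab27a and Rab27b, GTPases needed for exosome secretion, had been knocked down with shRNAs. The muscles of all groups were taken on day 30. In every group, replicates 1 and 2 are labelled C57BL/6, which hosted the lung carcinoma line LLC, and replicates 3 and 4 BALB/c, which hosted the colon carcinoma line CT26, so strain and tumor line cannot be told apart. The knock-down was in the tumor cells and the muscle was not genetically changed, so no targeted gene could be checked in these libraries. The methods describe adult male mice, 6 to 8 weeks old, whereas the labels, like the study's outline of its models, give BALB/c mice of both sexes.

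Library totals ran from 35913190 to 61032708 counts, enough that mice of a group differed by far more than counting error. Skeletal muscle markers were high in every library, with a summed level over 10 markers of 62081 to 184723 TMM-normalized CPM (library-scaled counts), and no marker was at 0. The lowest sum was that of CAC replicate 3. KD replicate 3, labelled BALB/c, stood apart with 0 CPM over 4 Y-linked genes, against 111 to 174 CPM in the other 15 libraries. Nnt, a gene with a deletion in the C57BL/6J substrain, did not separate the labelled strains (5.73 to 60.7 CPM in the libraries labelled C57BL/6 and 6.09 to 112 CPM in those labelled BALB/c), so splits by strain follow the labels alone. Another identifier of Nnt, at 21.5 to 98.1 and 19.1 to 202 CPM, did not separate them either. In bulk muscle, fewer cells of a type and less RNA per cell cannot be told apart.

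PGC-1 proteins do not bind DNA themselves. They dock on nuclear receptors, above all the ERRs and PPARs, and on nuclear respiratory factors, and raise transcription of genes for mitochondria, oxidative phosphorylation, and fatty acid use. In muscle, Ppargc1a responds to exercise, cold, and calcium or cAMP signals, whereas Ppargc1b is less responsive to such signals. The NR4A receptors are immediate-early genes, switched on quickly by beta-adrenergic, calcium, and growth factor signals, and act on glucose and oxidative metabolism.

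On the FPKM scale, which divides by gene length and so allows levels of different genes to be compared, the genes fell into a high pair and a low remainder. In NOR muscle, Nr4a1 (119 ± 21.5 FPKM, SD, n = 4) was highest and Esrra (89.1 ± 3.63 FPKM) next, and the libraries of the pair did not overlap. Esrra in turn did not overlap with Ppard (16.6 ± 5.25 FPKM). From there down, each gene overlapped with the next: Pparg (10.6 ± 6.68 FPKM), Ppargc1a (8.93 ± 1.44 FPKM), Esrrg (5.93 ± 2.17 FPKM), Ppara (3.23 ± 0.973 FPKM), Ppargc1b (3.06 ± 0.324 FPKM), Esrrb (2.58 ± 1.20 FPKM), and Nr4a3 (1.33 ± 1.24 FPKM). In CAC muscle, Esrra (58.5 ± 13.6 FPKM) and Nr4a1 (55.5 ± 7.94 FPKM) overlapped at the top, and Ppargc1b (2.11 ± 0.406 FPKM) was at the bottom, overlapping with Nr4a3 (2.15 ± 2.34 FPKM). In AM and KD muscle, Nr4a1 (101 ± 46.5 and 107 ± 61.2 FPKM) and Esrra (82.5 ± 9.15 and 83.4 ± 8.89 FPKM) were again the highest, with overlapping libraries, and Nr4a3 was the lowest.

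**Figure D1:**
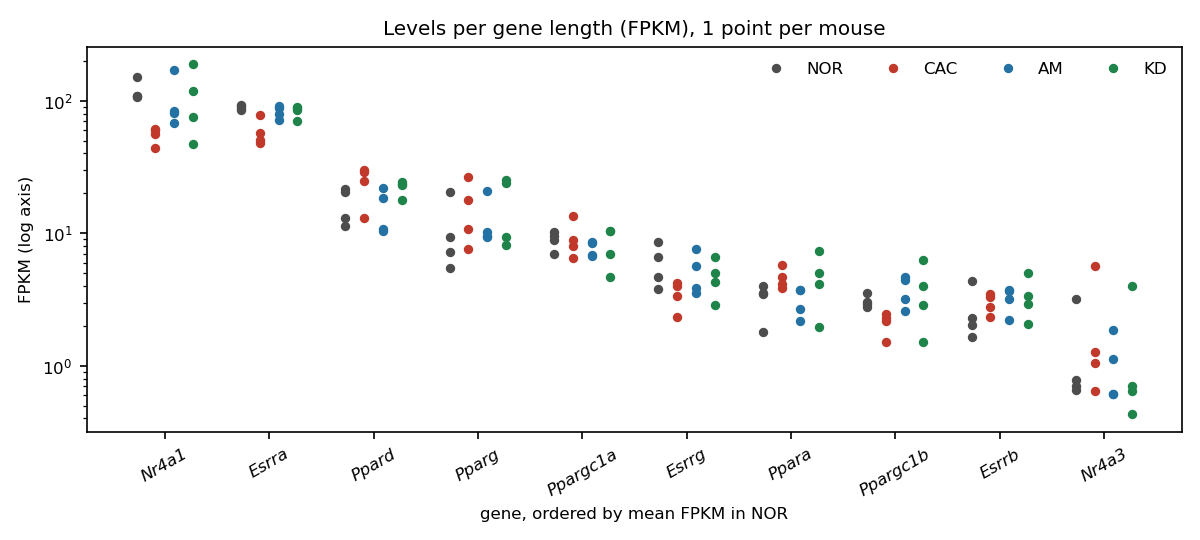
Levels of the 10 genes in FPKM (log axis), 1 point per mouse, coloured by group and ordered by the NOR mean. Nr4a1 and Esrra stand above the other 8 genes in all 4 groups, and their CAC points are lower than their NOR points.

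In CAC vs. NOR, 3 of the 10 genes were downregulated and none were upregulated. The 3 were Nr4a1, Esrra, and Ppargc1b, which dropped to 0.434, 0.603, and 0.622 times their NOR level. A gene was called when edgeR's quasi-likelihood F test gave a Benjamini-Hochberg FDR of at most 0.05 over all genes tested and a fold change of at least 1.5 in either direction. Among all 14666 genes tested, 9.45% were called, 4.32% upwards and 5.13% downwards (633 and 753 genes, or 959 and 619 if scaled by total counts only). The CAC and NOR libraries did not overlap for these same 3 genes, a pattern that 23.3% of all genes showed. In AM vs. CAC, which shares the CAC libraries, 1 of the 10 genes was upregulated (Ppargc1b, 1.84 times the CAC level) and none fell. In that comparison 3.66% of all 14674 genes were called, 1.63% upwards and 2.03% downwards (239 and 298 genes, or 279 and 232 with upper-quartile scaling). Ppargc1b was also the only one of the 10 whose AM and CAC libraries did not overlap, against 15.3% of all genes. In KD vs. CAC none of the 10 were called by edgeR (3 at an unadjusted p under 0.05, 1 called by DESeq2, 0 by limma-voom), against 0.00685% of all genes, or 1 of 14593. Over all genes, 11.1% were at an unadjusted p under 0.05 and DESeq2 called 2.33%, 340 genes. Esrra was the only one of the 10 whose KD and CAC libraries did not overlap, against 7.29% of all genes.

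None of the 10 were called in AM vs. NOR, KD vs. NOR, or AM vs. KD, where edgeR, like limma-voom, called 0% of all genes. DESeq2 also called none of the 10 there. At an unadjusted p under 0.05 there were 0, 0, and 1 of the 10, the last being Ppard, against 9.19%, 3.54%, and 1.11% of all genes. These misses do not show equal levels. The 95% interval of the log2 fold change in AM vs. NOR was -0.26 to 0.68 for Ppargc1b, -0.42 to 0.09 for Esrra, and -0.96 to 0.41 for Nr4a1. In KD vs. NOR it was -0.52 to 0.90, -0.34 to 0.15, and -1.06 to 0.85.

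**Figure D2:**
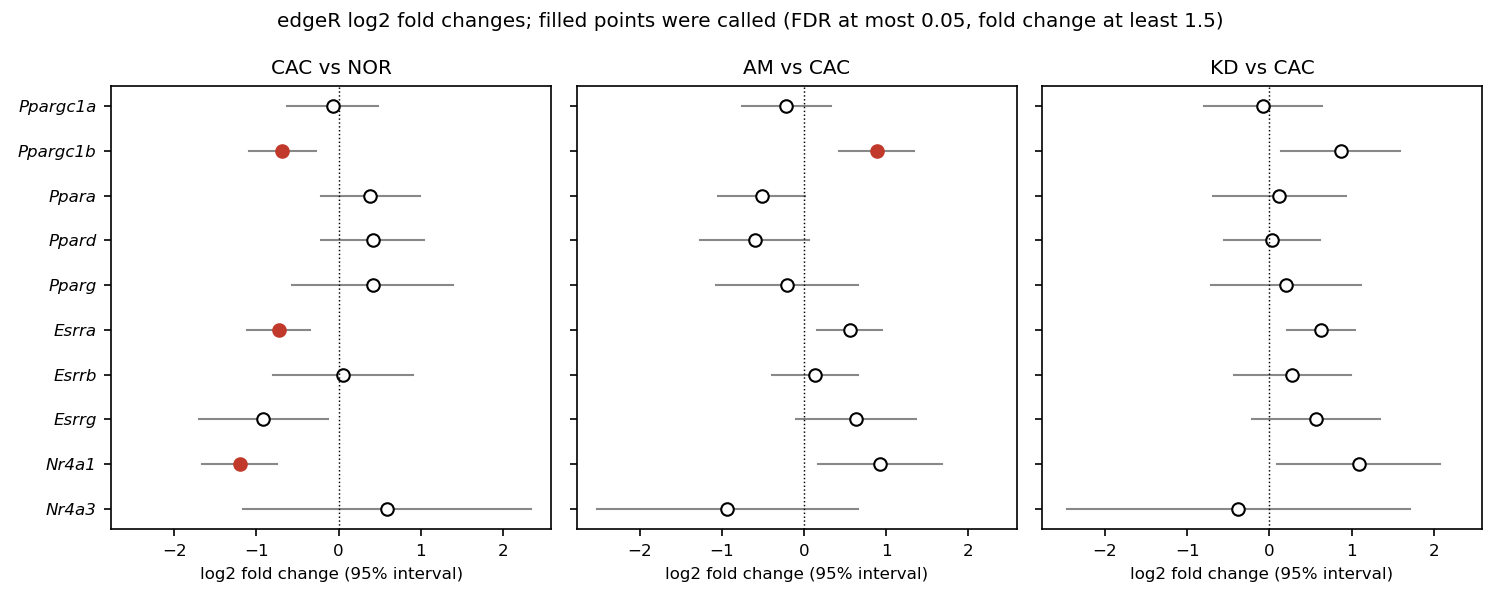
Log2 fold changes of the 10 genes with 95% intervals in the first 3 comparisons, from edgeR fits on 4 against 4 mice. Filled points, the called genes, are Ppargc1b (-0.69), Esrra (-0.73), and Nr4a1 (-1.21) in CAC vs. NOR and Ppargc1b (0.88) in AM vs. CAC.

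Of the coactivators, Ppargc1b was lower in CAC muscle than in NOR muscle, whereas Ppargc1a showed no such difference. Ppargc1b (ENSMUSG00000033871) lies on chromosome 18 (GRCm38, 61298136 to 61400431, minus strand). It stood at 14.0, 10.4, 10.3, and 9.66 CPM in NOR replicates 1 to 4 and at 5.59, 7.63, 6.88, and 7.60 CPM in CAC. The AM libraries held 13.9, 9.26, 16.3, and 11.6 CPM and the KD libraries 19.3, 6.23, 11.5, and 13.6 CPM. All CAC values were thus below all NOR and AM values, and KD replicate 2 was within the CAC range. CAC vs. NOR gave a log2 fold change of -0.69 (SE 0.18, FDR = 0.0381) and AM vs. CAC one of 0.88 (SE 0.20, FDR = 0.0444). A two-sided exact permutation test gave 0.0286 for both, the smallest p that 4 against 4 mice allow. In KD vs. CAC it was 0.87 (SE 0.32, FDR = 0.376). Both calls were near the limit. The CAC vs. NOR call was lost without any 1 of the mice other than NOR replicate 4 (FDR 0.0520 to 0.0886 in these fits), and the AM vs. CAC call without any 1 other than AM replicate 2 (FDR 0.0773 to 0.113). With all 16 libraries in 1 fit neither held (FDR = 0.130 and 0.0947), nor did either in 1 labelled strain alone. Total-count scaling, the replicate block, and an adipocyte covariate also ended both calls. A strain or lymphocyte covariate ended that in AM vs. CAC. BALB/c alone called 0 of all genes in both comparisons, and C57BL/6 alone and the replicate block called 0 in AM vs. CAC. Over all alternatives the log2 fold changes of Ppargc1b stayed at -0.88 to -0.44 and at 0.75 to 1.01.

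**Figure D3:**
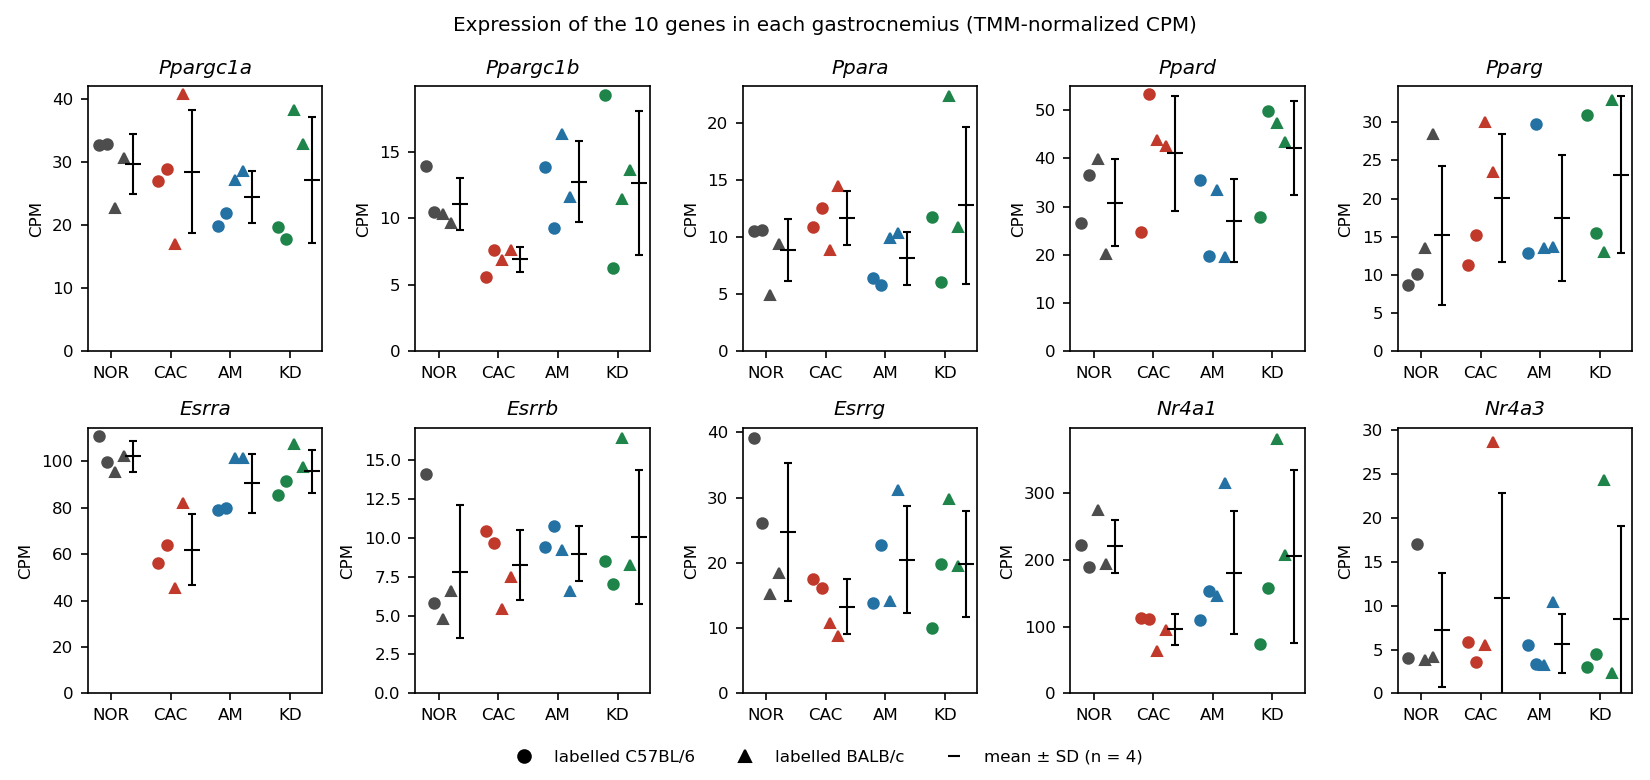
TMM-normalized CPM of each gene in every mouse by group, with circles for mice labelled C57BL/6, triangles for mice labelled BALB/c, and bars for the mean ± SD (n = 4, cut at 0 for Nr4a3). For Ppargc1b, Esrra, and Nr4a1 the 4 CAC points lie below the 4 NOR points, whereas for the other 7 genes the groups overlap.

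Ppargc1a (ENSMUSG00000029167, chromosome 5, 51454250 to 51567726, minus strand), the best known inducer of mitochondrial biogenesis, stood at 32.7, 32.9, 22.8, and 30.8 CPM in NOR and at 27.1, 29.0, 17.1, and 40.9 CPM in CAC. The AM libraries held 20.0, 21.99, 27.2, and 28.7 CPM and the KD libraries 19.7, 17.8, 38.3, and 32.9 CPM. The 4 groups overlapped, and the highest and the lowest of the 16 values, CAC replicates 4 and 3, came from 1 group. Relative to NOR, CAC differed by -0.07 on the log2 scale (95% interval -0.63 to 0.48, FDR = 0.887). Relative to CAC, AM differed by -0.21 (-0.76 to 0.33, FDR = 0.664) and KD by -0.08 (-0.80 to 0.64, FDR = 0.971). Whether the coactivators differed from each other was asked with the log2 ratio of Ppargc1b to Ppargc1a in FPKM, a measure chosen after the values were seen. The ratio averaged -1.54 ± 0.28 in NOR mice and -2.10 ± 0.50 in CAC mice, then -1.06 ± 0.38 with AM and -1.25 ± 0.76 with KD (SD, n = 4). CAC and NOR overlapped (exact permutation p = 0.114). AM and CAC did not overlap (p = 0.0286, exact permutation test, and 0.274 adjusted over the 12 ratio comparisons made), so a different response of the coactivators was not shown.

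The ERR receptors have no known natural ligand and work as the main DNA-bound partners of PGC-1 on genes of the tricarboxylic acid cycle and respiratory chain. Esrra (ENSMUSG00000024955, chromosome 19, 6910977 to 6921813, minus strand), by far the most abundant of the family here, stood at 111, 99.8, 95.2, and 102 CPM in NOR, a spread of 6.65 CPM (SD) around a mean of 102. In CAC it was 56.1, 64.1, 45.4, and 81.8 CPM. The AM libraries held 79.1, 79.9, 101, and 102 CPM and the KD libraries 85.6, 91.6, 108, and 97.7 CPM. Every CAC value was below every NOR and KD value, and AM replicates 1 and 2 were just below CAC replicate 4. Esrra was downregulated in CAC vs. NOR (log2 fold change -0.73, SE 0.17, FDR = 0.0244). The difference from CAC was 0.55 (SE 0.17, FDR = 0.108) in AM and 0.62 (SE 0.18, FDR = 0.291) in KD, neither of which was called by edgeR, while DESeq2 called Esrra in KD vs. CAC (0.64, FDR = 0.0497). The CAC vs. NOR call was lost without NOR replicate 1, 2, or 3 or CAC replicate 1 or 2 (FDR 0.0517 to 0.0684 in these fits) and in the mice labelled C57BL/6 (FDR = 0.0655) or BALB/c (FDR = 0.379) alone. BALB/c alone called 0 of all 15059 genes. Over all alternatives the log2 fold change of Esrra stayed at -0.89 to -0.60. Without CAC replicate 4, Esrra was also called in AM vs. CAC (0.71, FDR = 0.0487). Its exons share 91 bases, 2.07% of their length, with the microRNA gene Mir6990 on the same strand and 73 bases, 1.66%, with Trmt112 on the opposite strand. Reads in the latter cannot be assigned if strand was not used in counting.

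Esrrg (ENSMUSG00000026610, chromosome 1, 187608791 to 188214885), the ERR most tied to slow, oxidative fibres, stood at 39.2, 26.1, 15.3, and 18.5 CPM in NOR and at 17.5, 16.1, 10.8, and 8.74 CPM in CAC. In both groups the replicates labelled C57BL/6 held most, and NOR and CAC overlapped only through NOR replicate 3. The log2 fold change was -0.91 (SE 0.34, FDR = 0.115), larger in size than that of Esrra and not called, and without NOR replicate 1 it was -0.57. It was called with the labelled strain as a covariate (FDR = 0.0177) and by DESeq2 (FDR = 0.0399). Esrrg was 13.9, 22.8, 14.2, and 31.2 CPM in AM and 9.98, 19.9, 29.8, and 19.5 CPM in KD, and its differences from CAC were 0.63 (FDR = 0.304) and 0.57 (FDR = 0.577), or 0.35 without AM replicate 4 and 0.31 without KD replicate 3. Esrrb (ENSMUSG00000021255, chromosome 12, 86361117 to 86521628), known as a factor of pluripotent cells, was low, at 4.78 to 14.1 CPM in NOR, 5.42 to 10.4 in CAC, 6.54 to 10.8 in AM, and 7.00 to 16.4 in KD. CAC differed from NOR by 0.05 on the log2 scale (SE 0.37, FDR = 0.948). The log2 FPKM ratio of Esrra to Esrrb was 5.21 ± 0.59 in NOR and 4.29 ± 0.44 in CAC (SD, n = 4, exact permutation p = 0.0857), and that of Esrra to Esrrg was 3.98 ± 0.52 and 4.09 ± 0.68 (exact permutation p = 0.83), so the members of the family were not shown to have changed unequally.

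The PPARs bind fatty acids and their derivatives and pair with RXR receptors. None of the 3 were called in any comparison. Ppard (ENSMUSG00000002250, chromosome 17, 28232700 to 28301474), the main PPAR of muscle fibres, ranged from 20.2 to 39.8 CPM in NOR, 24.7 to 53.2 in CAC, 19.5 to 35.5 in AM, and 27.9 to 49.7 in KD. On the log2 scale CAC was 0.42 from NOR (FDR = 0.361), AM was -0.60 from CAC (FDR = 0.277), and AM was -0.62 from KD (edgeR, unadjusted p = 0.0457, FDR = 1.00). Ppara (ENSMUSG00000022383, chromosome 15, 85734983 to 85802819), the driver of fatty acid oxidation in liver and muscle, ranged from 4.90 to 10.6 CPM in NOR, 8.84 to 14.5 in CAC, 5.84 to 10.3 in AM, and 6.11 to 22.4 in KD. For Ppara these log2 differences were 0.39 for CAC from NOR (FDR = 0.378), and -0.52 for AM (FDR = 0.243) and 0.12 for KD (FDR = 0.957) from CAC. The lowest NOR value, 4.90 CPM, was that of replicate 3, with 9.43 to 10.6 CPM in the other NOR mice. The value for CAC from NOR ranged from 0.15 to 0.72 over all alternatives.

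Pparg (ENSMUSG00000000440, chromosome 6, 115360951 to 115490399), the master regulator of adipocytes, varied more between mice than between groups. It was 8.67, 10.1, 13.5, and 28.5 CPM in NOR, 11.3, 15.3, 30.0, and 23.5 in CAC, 12.9, 29.8, 13.5, and 13.7 in AM, and 30.9, 15.5, 13.0, and 32.9 in KD. The 16 values lay in separate ranges, 23.5 to 32.9 CPM in 6 libraries and 8.67 to 15.5 CPM in the other 10. The 6 libraries with the highest Pparg, NOR replicate 4, CAC replicates 3 and 4, AM replicate 2, and KD replicates 1 and 4, were also the 6 with the highest summed level of 10 adipocyte markers (3581 to 5871 CPM, against 944 to 2317 CPM in the other 10). As log2 differences, Pparg in CAC was 0.41 from NOR (FDR = 0.586), and from CAC it was -0.21 with AM (FDR = 0.804) and 0.20 with KD (FDR = 0.920). With the adipocyte sum as a covariate, an alternative added after the data were seen, the value in CAC vs. NOR was -0.11. Over all alternatives it ranged from there to 0.90.

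**Figure D4:**
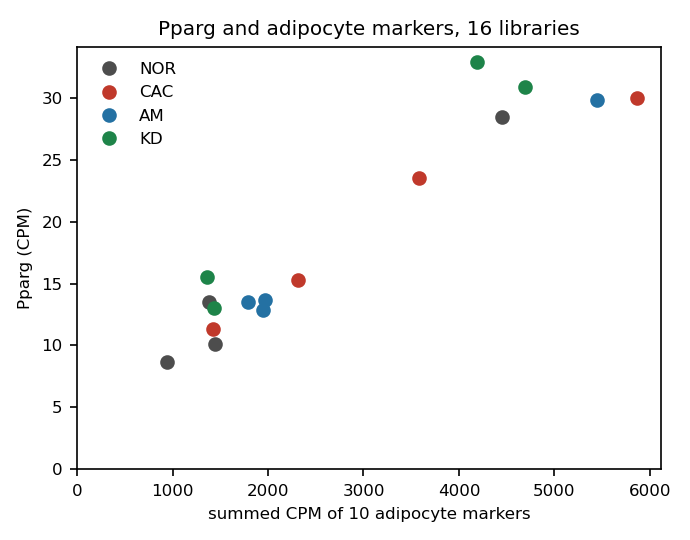
Pparg (CPM, y axis) against the summed CPM of 10 adipocyte markers (x axis) in the 16 libraries, coloured by group. The 6 libraries with Pparg at 23.5 CPM or more are the 6 to the right, with adipocyte sums of at least 3581 CPM, and they come from all 4 groups.

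Of the NR4A receptors, Nr4a1 (Nur77) had the largest fall of the 3 genes called in CAC muscle. Nr4a1 (ENSMUSG00000023034, chromosome 15, 101254269 to 101274795) was 222, 189, 276, and 194 CPM in NOR and 113, 112, 63.9, and 94.8 CPM in CAC. The lowest NOR value was well above the highest CAC value. The log2 fold change was -1.21 (SE 0.20, FDR = 0.00847), and the call held without each of the 8 mice in turn (FDR 0.00918 to 0.0284). It was lost with all 16 libraries in 1 fit (FDR = 0.0741) and in the mice labelled C57BL/6 (FDR = 0.0620) or BALB/c (FDR = 0.144) alone. BALB/c alone called 0 of all 15059 genes, and over all alternatives the log2 fold change stayed at -1.54 to -0.87. In AM, Nr4a1 was 110, 153, 146, and 316 CPM and in KD 73.8, 158, 382, and 208 CPM, so replicate 1 of each group was within the CAC range and 1 mouse in each group was above all NOR mice. The differences from CAC, 0.92 in AM (SE 0.33, FDR = 0.149) and 1.08 in KD (SE 0.44, FDR = 0.414), were large beside that of Esrra and not called by edgeR, with SDs of 91.8 CPM in AM and 130 CPM in KD against 23.0 CPM in CAC. DESeq2 called Nr4a1 in AM vs. CAC (0.93, FDR = 0.0382). Without AM replicate 4 the AM difference was 0.50 (FDR = 0.248), and without KD replicate 3, the library without Y-linked expression, the KD difference was 0.61 (FDR = 0.643).

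Nr4a3 (Nor1; ENSMUSG00000028341, chromosome 4, 48045153 to 48086447) showed no such fall. It was 4.06, 17.0, 3.81, and 4.18 CPM in NOR, 5.89, 3.54, 5.55, and 28.7 in CAC, 5.51, 3.33, 3.29, and 10.5 in AM, and 3.04, 4.44, 24.4, and 2.27 in KD. In each group 1 mouse stood above the other 3, which were at 5.89 CPM or less. CAC was 0.59 above NOR on the log2 scale (SE 0.77, FDR = 0.674), and without CAC replicate 4 it was -0.53. The log2 FPKM ratio of Nr4a1 to Nr4a3 was 6.83 ± 1.20 in NOR and 5.21 ± 1.40 in CAC (SD, n = 4, exact permutation p = 0.143), so a divergence of the pair was not shown. CAC replicate 4 and KD replicate 3 also held the highest Ppargc1a of the 16 libraries, 40.9 and 38.3 CPM, and Nr4a1 there was 94.8 and 382 CPM. Nr4a2, of the same family, was counted with the partners below and is named here after its values were seen. It was 3.68 ± 2.61 CPM in NOR and 2.13 ± 0.595 CPM in CAC (log2 fold change -0.79, FDR = 0.273). The difference of Nr4a2 from CAC was 0.71 in AM (FDR = 0.191) and 0.30 in KD (FDR = 0.740), and edgeR called none of these.

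Nr4a1, Nr4a3, and Ppargc1a are textbook targets of CREB, the factor that carries cAMP and calcium signals to cAMP response elements (CREs), and their promoters are shown because the 3 share this regulator while only Nr4a1 was called. The sequences are the 250 bases before the annotated start, from RefSeq (GRCm38.p6), 5′ to 3′, with the CRE half-site TGACG, on either strand (CGTCA on the other), in capitals. The RefSeq starts differ from the GENCODE gene positions given above. The Nr4a1 stretch lies inside the gene span and the Nr4a3 stretch runs past the gene start. Starts not in RefSeq were not searched.
Nr4a1, chr15:101266596-101266845, plus strand: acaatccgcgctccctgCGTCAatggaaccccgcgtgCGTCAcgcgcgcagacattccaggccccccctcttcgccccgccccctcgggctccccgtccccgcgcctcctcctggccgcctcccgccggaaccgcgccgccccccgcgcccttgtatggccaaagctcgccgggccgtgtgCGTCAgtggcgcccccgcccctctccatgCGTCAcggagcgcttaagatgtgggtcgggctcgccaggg
Nr4a3, chr4:48045055-48045304, plus strand: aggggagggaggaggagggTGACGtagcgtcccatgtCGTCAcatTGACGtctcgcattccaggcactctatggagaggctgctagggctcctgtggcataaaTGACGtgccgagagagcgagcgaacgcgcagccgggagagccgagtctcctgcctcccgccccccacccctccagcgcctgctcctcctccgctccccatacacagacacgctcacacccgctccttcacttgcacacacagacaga
Ppargc1a, chr5:51567726-51567975, minus strand: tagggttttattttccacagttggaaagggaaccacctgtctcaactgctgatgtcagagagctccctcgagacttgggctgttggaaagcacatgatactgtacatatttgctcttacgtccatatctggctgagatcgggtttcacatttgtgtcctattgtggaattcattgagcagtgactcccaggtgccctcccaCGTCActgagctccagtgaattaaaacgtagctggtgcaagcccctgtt
The RefSeq table held 15 promoters for 9 of the 10 genes, all but Ppargc1b. Nr4a1 and Nr4a3 carried 4 half-sites each and Ppargc1a 1, while Esrrb carried 2 and Ppara 1 and the other 4 genes none. At least 1 half-site was found in 17.8% of the 32851 promoters of the table and 4 or more in 0.137%. Of these promoters, 1.55% held the full CRE TGACGTCA, which contains the half-site on both strands, 1.14% the ERR element TNAAGGTCA, 1.34% the NR4A element AAAGGTCA, and 0.0335% DR1, the PPAR and RXR element made of AGGTCA repeated after 1 base, searched on both strands. The last 3 motifs share the letters AGGTCA, so that a match of 1 can be a match of another, and none of the 15 promoters held any of the 4. The 4 half-sites were thus present both in the gene that fell and in the one that was not called.

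The response of the 10 genes was not shown to differ between the labelled strains. No gene passed an FDR of 0.05 for the interaction of strain and group in CAC vs. NOR, AM vs. CAC, or KD vs. CAC (edgeR, 0% of all genes in each), and DESeq2 found none among the 10. At an unadjusted p under 0.05 there were 1, 1, and 2 of the 10, against 4.89%, 12.4%, and 5.65% of all genes. These were Nr4a3 in CAC vs. NOR (3.30 higher on the log2 scale in BALB/c, FDR = 0.993), Pparg in AM vs. CAC (-1.69, FDR = 0.349), and Nr4a1 (1.81, FDR = 0.854) and Esrrg (1.46, FDR = 0.854) in KD vs. CAC. Within each labelled strain, with 2 mice per group and no test, the log2 ratio of the CAC to the NOR mean was -0.88 (C57BL/6) and -0.46 (BALB/c) for Ppargc1b, -0.81 and -0.63 for Esrra, -0.95 and -0.79 for Esrrg, and -0.87 and -1.56 for Nr4a1. For AM over CAC, the ratio for Nr4a1 was 0.22 in C57BL/6 and 1.54 in BALB/c. Likewise, for KD over CAC it was 0.04 and 1.89. Ppargc1b in AM over CAC was 0.81 and 0.95.

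The genes around these factors were described by lists of their known partners, regulators, and targets. Counts by DESeq2 are to be read against its own share of all genes, which was 5.72% called upwards and 7.38% downwards in CAC vs. NOR, 4.36% and 3.26% in AM vs. CAC, and 1.62% and 0.706% in KD vs. CAC. Of 26 partners and co-regulators, 1 was downregulated in CAC vs. NOR by edgeR (2 by DESeq2) and none upregulated, against 5.13% of all genes called downwards, so that the share was near that of all genes. The median log2 fold change was 0.04, against 0.01 over all genes tested. The gene called was Rxrg, a muscle-enriched RXR and thus a dimer partner of PPARs, which was 68.4 ± 13.1 CPM in NOR and 34.1 ± 10.4 in CAC (log2 fold change -1.02, FDR = 0.0239). It was 54.3 ± 10.7 CPM in AM (0.67 from CAC, FDR = 0.122) and 58.2 ± 15.01 CPM in KD (0.77, FDR = 0.335). None of the partners were called in AM vs. CAC (5 at an unadjusted p under 0.05, against 21.7% of all genes, and 1 called by DESeq2) or KD vs. CAC (1, against 11.1% of all genes, and 0).

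Of 22 upstream regulators of Ppargc1a, 4 fell and 1 rose in CAC vs. NOR (median -0.02), against 5.13% and 4.32% of all genes. The largest fall was that of Prkag3, the AMPK subunit of fast glycolytic fibres, from 178 ± 34.6 to 51.5 ± 34.2 CPM (log2 fold change -1.81, FDR = 0.0397). Camk2a, a calcium-dependent kinase, fell by 1.20 (FDR = 0.0185), Hdac9, a class IIa deacetylase that restrains MEF2, by 0.82 (FDR = 0.0275), and Mef2c, an activator of Ppargc1a, by 0.78 (FDR = 0.0361) on the log2 scale. The gene that rose was Pde4d, which breaks down cAMP (0.59, FDR = 0.0402), named after its value was seen. Activators and repressors were thus both among those that fell. In AM vs. CAC, the gene called by edgeR was Hdac9 (0.88, FDR = 0.0163), 1 of the 22 against 3.66% of all genes. There were 7 at an unadjusted p under 0.05 (21.7% of all genes), and DESeq2 called 3 risen and 1 fallen. The differences of Prkag3 (1.15, FDR = 0.205), Camk2a (0.76, FDR = 0.145), and Mef2c (0.68, FDR = 0.0758) were not. In KD vs. CAC none were called (5 at an unadjusted p under 0.05, against 11.1% of all genes, and 2 called by DESeq2), with 1.44 for Prkag3 (FDR = 0.333), 0.95 for Camk2a (FDR = 0.301), 0.57 for Hdac9 (FDR = 0.557), and 0.64 for Mef2c (FDR = 0.378). Without CAC replicate 3, the library with the lowest muscle markers, 2 of the 22 fell in CAC vs. NOR, against 4.09% of all genes in that fit.

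Of 26 ERR and PGC-1 target genes, 8 were downregulated in CAC vs. NOR by edgeR (11 by DESeq2) and none upregulated, against 5.13% of all genes called downwards. In all, 25 had a log2 fold change below 0, and the median was -0.55, against 0.01 over all genes tested. Ckmt2, the mitochondrial creatine kinase of muscle, fell from 1641 ± 206 to 673 ± 306 CPM (log2 fold change -1.30, FDR = 0.0382). Idh3a, an enzyme of the tricarboxylic acid cycle, fell by 1.02 (FDR = 0.0107), Cycs (cytochrome c) by 0.84 (FDR = 0.0141), and Ndufs1 (complex I) by 0.80 (FDR = 0.0313) on the log2 scale. None of the 26 were called by edgeR in AM vs. CAC, where 24 were above 0 with a median of 0.39 (10 at an unadjusted p under 0.05, against 21.7% of all genes, and 4 called by DESeq2), or in KD vs. CAC, where 25 were above 0 with a median of 0.47 (14, against 11.1% of all genes, and 3). Ckmt2 differed from CAC by 0.99 in AM (FDR = 0.147) and 1.02 in KD (FDR = 0.36), and Idh3a by 0.73 (FDR = 0.0729) and 0.81 (FDR = 0.263). The comparisons share the CAC mice. Without CAC replicate 3, 5 of the 26 fell in CAC vs. NOR (median -0.43), against 4.09% of all genes, and the medians were 0.25 in AM vs. CAC and, without KD replicate 3, 0.40 in KD vs. CAC, where 6 rather than 14 were then at an unadjusted p under 0.05, against 9.34% of all genes. The summed skeletal muscle markers were at 129093 to 184723 CPM in NOR and 62081 to 135409 CPM in CAC. Of the 10 markers, 8 had a lower mean in CAC, 4 of them without overlap (Acta1, Casq1, Mylpf, Pygm), while Ttn had a higher mean and Des was higher in every CAC mouse (5192 to 7855 CPM, against 2807 to 3586 CPM in NOR). Their part in the result was not tested.

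Of 25 PPAR target genes tested, 2 rose and none fell in CAC vs. NOR by edgeR (median 0.03), against 9.45% of all genes called. At an unadjusted p under 0.05 there were 8, against 29.1% of all genes, and DESeq2 called 5 upwards and 1 downwards, against 5.72% and 7.38% of all genes. Acot1, an acyl-CoA thioesterase, was 2.37 ± 0.316 CPM in NOR and 11.4 ± 3.72 CPM in CAC (log2 fold change 2.27, FDR = 0.00272), although reads of this gene may be shared with its close paralogs. Plin5, which coats lipid droplets in oxidative muscle, rose from 19.5 ± 3.15 to 32.4 ± 7.04 CPM (0.73, FDR = 0.0422). In AM vs. CAC, the gene called by edgeR was Cpt1a (1 of the 25, against 3.66% of all genes, with 7 at an unadjusted p under 0.05, against 21.7%, and 3 called upwards by DESeq2), which brings long-chain fatty acids into mitochondria. It was 31.9 ± 7.29 CPM in CAC and 59.0 ± 10.2 CPM in AM (0.89, FDR = 0.0347), 32.8 ± 2.84 CPM in NOR, and 46.8 ± 21.8 CPM in KD (0.55 from CAC, FDR = 0.569). The AM values of Cpt1a, 45.9 to 68.9 CPM, were above all CAC values, 23.5 to 41.2 CPM. Cpt1b, of the same list and named after its values were seen, was the more abundant of the pair. It was 296 ± 85.4 CPM in CAC and 370 ± 90.6 CPM in AM and was not called by edgeR (0.32, FDR = 0.472). Without CAC replicate 3, Cpt1a was no longer called and 0 of the 25 were (5 at an unadjusted p under 0.05, against 21.4% of all genes). Acot1 and Plin5 were -0.54 (FDR = 0.523) and -0.20 (FDR = 0.637) in AM vs. CAC and -1.14 (FDR = 0.265) and -0.33 (FDR = 0.576) in KD vs. CAC, where none of the list were called (6 at an unadjusted p under 0.05, against 11.1% of all genes, or 3 without KD replicate 3, against 9.34%, and 2 called by DESeq2).

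Immediate-early genes, the class to which the NR4A genes belong, moved in both directions. Of 20 other such genes, 2 fell and 3 rose in CAC vs. NOR by edgeR (median -0.06), against 5.13% and 4.32% of all genes, while DESeq2 called 4 fallen and 3 risen. Fos fell from 85.5 ± 54.2 to 17.4 ± 11.1 CPM (log2 fold change -2.29, FDR = 0.0373) and Egr1 from 82.8 ± 22.2 to 19.2 ± 2.85 CPM (-2.11, FDR = 0.00191), while Ier3 (1.51, FDR = 0.00835), the kinase gene Sik1 (1.19, FDR = 0.0103), and Myc (1.05, FDR = 0.0229) rose. Egr1, like Nr4a1, was lower in every CAC mouse (16.03 to 22.7 CPM) than in every NOR mouse (66.8 to 115 CPM). In AM vs. CAC, Jun (-1.10, FDR = 0.0190) and Myc (-1.02, FDR = 0.0378) fell by edgeR, against 2.03% of all genes called downwards, while DESeq2 called 4 fallen and 1 risen. Egr1 was 1.15 (FDR = 0.115) and Fos 0.44 (FDR = 0.800) there. In KD vs. CAC none were called (3 at an unadjusted p under 0.05, against 11.1% of all genes, and 0 called by DESeq2), with 1.66 for Egr1 (FDR = 0.446) and -0.89 for Myc (FDR = 0.317). Without CAC replicate 3, the counts were 1 fallen and 2 risen in CAC vs. NOR (4.09% and 4.01% of all genes) and 1 fallen in AM vs. CAC (1.49%).

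**Figure D5:**
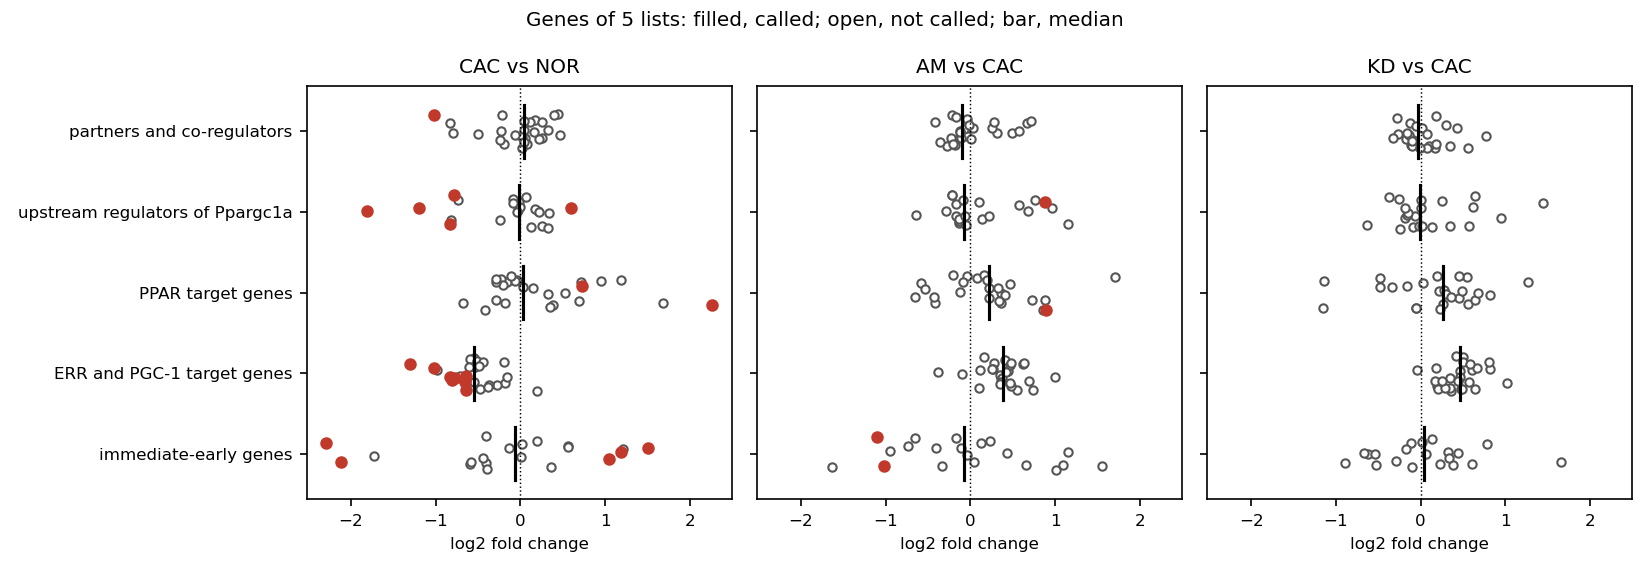
Log2 fold changes of the genes of 5 lists in the first 3 comparisons, 1 point per gene, filled where called, with a bar at each median. Of the 26 ERR and PGC-1 targets, 25 lie left of 0 in CAC vs. NOR (median -0.55), and most lie right of it in AM vs. CAC (0.39) and KD vs. CAC (0.47), while the medians of the partners, the upstream regulators, and the immediate-early genes stay within 0.1 of 0.

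The genes whose log2 CPM over the 16 libraries was most like that of a called gene were listed as a description, by Pearson's r across libraries that share their groups. For Esrra these were Cyc1, of respiratory complex III (r = 0.960), Ckmt2 (0.957), and Mdh2, of the tricarboxylic acid cycle (0.956). For Nr4a1 they were Sec61a2 (0.936), Mvb12b (0.931), and Cpe (0.924). For Ppargc1b they were Frzb (0.931), Zfp324 (0.927), and Ttll12 (0.902).

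Markers of other cells also differed between the groups in which these genes differed. The sum of 10 neutrophil markers was 13.8 to 44.8 CPM in NOR and 126 to 309 CPM in CAC, and that of 7 erythroid markers 1003 to 1375 and 3648 to 8722 CPM, without overlap. Up to 2 of the neutrophil and 1 of the erythroid markers were at 0 in a NOR library and none in CAC. In AM and KD the neutrophil sums reached into both ranges, at 25.4 to 256 and 19.2 to 384 CPM. The erythroid sums were 967 to 16109 CPM in AM and 2229 to 21227 CPM in KD, the latter above all NOR values. The adipocyte sum was 944 to 4454 CPM in NOR and 1421 to 5871 CPM in CAC, the macrophage sum 230 to 652 and 556 to 849 CPM, and the endothelial sum 1445 to 2009 and 1852 to 2531 CPM. Lymphocyte markers varied within every group, from 2.94 to 618 CPM over the 16 libraries. Fast fibre genes summed to 112552 to 157127 CPM in NOR and 61728 to 133442 CPM in CAC, and slow fibre genes to 2116 to 4978 and 1902 to 5598 CPM. With the adipocyte sum as a covariate the log2 fold changes in CAC vs. NOR were -1.04 for Nr4a1 (FDR = 0.0120), which remained called, and -0.63 for Ppargc1b (FDR = 0.102) and -0.69 for Esrra (FDR = 0.0594), which did not. The markers in that sum did not move alike. Plin4 was 482 to 714 CPM in CAC and 173 to 458 CPM in NOR, without overlap, whereas Lep was 0.321 to 9.02 and 2.77 to 55.6 CPM. The sum may thus carry part of the group difference itself, which was not tested. With the lymphocyte sum all 3 genes remained called. For the other cell types, their part in the results was not tested.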

How the data were processed

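Poly(A) RNA-seq of gastrocnemius was used from 16 mice in 4 groups. The authors deposited a table of whole-number counts per gene and FPKM values for every mouse. The FPKM values were derived by the authors from these counts with a fixed length for each gene, which was checked on 4407 genes (spread of the implied length over libraries at most 0.0927%). The submitters' processing notes name fastp, HISAT2, Bowtie2, StringTie 1.3.1, and the builds mm9 and GRCm38, without a role for each. The counting tool and strandedness are not given in the sources used here. All columns were matched to a mouse by name, and every column of per-sample values was used. The groups follow the labels, which do not tie replicates to a shared cage or batch.

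Counts were compared with edgeR 4.0.16 in R 4.3.3 (TMM, filterByExpr at its limits of 10 counts and 15 in total, quasi-likelihood F test). Each fit held the 8 libraries compared, and the FDR covers all genes tested. The study used NOISeq, which was not installed. edgeR was tested on simulated data first. CPM values are TMM-normalized over all 16 libraries, with a prior count of 2 on the log2 scale. Standard errors are the log2 fold change divided by the square root of F. Exact permutation tests were two-sided. Single-gene ratios used the deposited FPKM. Group mates differed by a chi-square of at least 66.6 times its degrees of freedom, so each library was counted as a separate sample. DESeq2 1.42.0, limma-voom (limma 3.58.1), other scalings and filters, covariates, and subsets were alternatives. Positions come from GENCODE M21 (GRCm38), which matched 21905 of the identifiers and not 18, and promoters from RefSeq. Named were all 10 genes, up to 4 called genes of each list with the largest change in CAC vs. NOR and in AM vs. CAC, with their KD vs. CAC values, and the 3 most alike genes with a mean of at least 1 CPM for each called gene. The 10 genes and all lists were chosen with earlier results of these data known. Tables were read with version 1.17.8 of data.table, pandas 2.3.3, and Python 3.11.15, and figures drawn with matplotlib 3.10.9.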

Additional observations from a re-analysis of the deposited data

Results flagged for a closer look

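In 5 of the 40 combinations of gene and group examined, the highest mouse stood far from the other 3. The cut used marks about 5% of sets of 4 if the values are normal and the sets independent. Neither was shown here, and the sets share genes and libraries, so no excess over chance can be read from the count. Pparg in AM replicate 2 was 29.8 CPM, Esrrb in KD replicate 3 was 16.4 CPM, and Nr4a3 was 17.0 CPM in NOR replicate 2, 28.7 CPM in CAC replicate 4, and 24.4 CPM in KD replicate 3. Adipocyte markers were also high in AM replicate 2, and KD replicate 3 is the library without Y-linked expression. Esrrb moved in opposite directions in KD vs. CAC, lower in both KD mice labelled C57BL/6 (8.47 and 7.00 CPM, against 10.4 and 9.63 CPM in CAC) and higher in both labelled BALB/c (16.4 and 8.27 CPM, against 5.42 and 7.49 CPM). The interaction was 1.26 on the log2 scale and did not pass the test (edgeR, unadjusted p = 0.0504, FDR = 0.866).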

How the results depend on the processing

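The 3 calls in CAC vs. NOR (Ppargc1b, Esrra, Nr4a1) became 1 with all 16 libraries in 1 fit (Esrra), with an adipocyte covariate (Nr4a1), and at a fold change limit of 2 (Nr4a1), and 0 in each labelled strain alone. Total-count scaling left 2, and DESeq2 and a strain covariate gave 4, adding Esrrg. Leaving out 1 mouse gave 1 to 3 calls. Of all genes in CAC vs. NOR, the fit of all 16 libraries called 519 up and 704 down. The adipocyte covariate called 543 and 564, C57BL/6 alone 125 and 122, and BALB/c alone 0. The 1 call in AM vs. CAC became 2 with DESeq2 (adding Nr4a1) and 0 with total counts, no count filter, a fold change limit of 2, a strain, lymphocyte, or adipocyte covariate, the replicate block, all 16 libraries, or either strain alone, and leaving out 1 mouse gave 0 to 1. Of all genes in AM vs. CAC, the replicate block and either strain alone called 0. Total counts called 213 up and 336 down, no count filter 172 and 265, and all 16 libraries 143 and 104. The strain, lymphocyte, and adipocyte covariates called 115 and 224, 216 and 238, and 198 and 258. In KD vs. CAC the count of 0 became 1 with DESeq2 (Esrra, FDR = 0.0497). Total-count scaling shifted the median of all genes by 0.12 in CAC vs. NOR and -0.12 in KD vs. CAC. Over all genes, DESeq2 called the most, 1921, 1119, and 340 in the first 3 comparisons (edgeR 1386, 537, and 1), 70, 31, and 1 in the other 3 (edgeR 0), and 125, 448, and 99 for the strain interaction (edgeR 0), while BALB/c alone called 0 in each of the first 3. The counts of the 10 genes in the other 3 comparisons and for the strain interaction stayed at 0 under all alternatives run. The labels do not pair the mice by replicate number. The r of same-numbered deviations was -0.24 to 0.68 in CAC vs. NOR, -0.56 to 0.07 in AM vs. CAC, and -0.70 to -0.30 in KD vs. CAC. Different-numbered mice were not compared as a reference, so pairing was neither shown nor excluded in these comparisons. With the replicate block, 3, 0, and 0 of the 10 genes were called in these comparisons, the 3 being Esrra, Esrrg, and Nr4a1. Over all genes the block called 533 up and 607 down in CAC vs. NOR and 0 in the others.

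None of the called log2 fold changes turned. Those of genes not called, mostly near 0, turned as follows. In CAC vs. NOR, Ppargc1a was 0.041 with total counts and 0.13 in BALB/c alone, Pparg -0.11 with the adipocyte covariate, Esrrb -0.020 with the lymphocyte covariate, and Nr4a3 -1.16 in C57BL/6 alone. In AM vs. CAC, Ppargc1a was 0.022 with the lymphocyte covariate and Pparg 0.69 in C57BL/6 alone. In KD vs. CAC, Ppargc1a was 0.27 and Pparg -0.24 in BALB/c alone, Ppara -0.36, Esrrb -0.34, and Esrrg -0.15 in C57BL/6 alone, Ppara -0.012 with the replicate block, and Ppard -0.13 with total counts. Against NOR, Esrra was 0.035 in AM and 0.051 in KD in BALB/c alone, Ppargc1b -0.065 in AM in C57BL/6 alone, and Nr4a1 in KD 0.32 in BALB/c alone and 0.0098 with the adipocyte covariate. Leaving out 1 mouse gave ranges across 0 in CAC vs. NOR for Ppargc1a (-0.30 to 0.12), Esrrb (-0.13 to 0.54), and Nr4a3 (-0.53 to 1.43), in AM vs. CAC for Ppargc1a (-0.39 to 0.0068), Pparg (-0.59 to 0.068), Esrrb (-0.018 to 0.25), and Nr4a3 (-1.42 to 0.17), in KD vs. CAC for Ppargc1a (-0.28 to 0.15), Ppara (-0.28 to 0.35), Ppard (-0.15 to 0.18), Pparg (-0.026 to 0.49), Esrrb (-0.052 to 0.41), and Nr4a3 (-1.74 to 0.75), and in KD vs. NOR for Ppargc1b (-0.089 to 0.42) and Nr4a1 (-0.58 to 0.17). The cause was not tested. Fold changes of the remaining genes against NOR, and of all genes in AM vs. KD, were not computed under alternatives.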
